A study of Mus musculus and Oryctolagus cuniculus and Sus scrofa with 20 samples.

Results

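Zygotene spermatocytes from mouse testes at postnatal day 13 were set against leptotene spermatocytes from testes at postnatal day 9, by the small RNAs sequenced from each. Both libraries came from untreated wild-type C57BL/6 males, and the labels give 1 library a stage, so 2 of the 20 libraries of the series enter the comparison. The series profiles small RNAs in mouse male germ cells by stage, and in rabbit, pig and rat testis, around an X-linked miRNA family. Total RNA was extracted with TRIzol, and the deposited tables give each distinct sequence, or tag, with its read count. The zygotene table held 1215172 distinct tags in 15317355 reads and the leptotene one held 863321 distinct tags in 12247017 reads. With 1 library a side there is no replicate check, so differences are given as values and folds with no test, and intervals are exact 95% intervals that cover counting error only. Stage, age, cell preparation and library cannot be told apart, and whether animals were pooled is not given in the sources used here. In these bulk samples, fewer cells of a type and less RNA per cell cannot be told apart.

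Leptotene and zygotene are the opening stages of meiotic prophase, in which chromosomes condense, break their DNA and begin to pair. MicroRNAs are short RNAs cut from hairpins that guide Argonaute proteins to messenger RNAs through a seed near their 5' end. PIWI-interacting RNAs (piRNAs) are longer, usually start with uridine, and repress transposons in fetal and early germ cells, while another set made from long intergenic precursors appears at the pachytene stage. Pieces of tRNA, rRNA and mitochondrial transcripts are sequenced beside them.

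The miRNAs on which the comparison turns are given as their mature sequences, 5' to 3', with the seed, bases 2 to 8, in capitals, because members that share a seed can then be read together. Sequences and coordinates are from RefSeq on the GRCm38.p6 assembly. Both arms of the miR-202 hairpin, at chr7:139957732-139957752 and chr7:139957695-139957716 on the minus strand, and miR-204-5p, at chr19:22750610-22750631 on the plus strand, had the highest ratios of zygotene to leptotene. miR-322-5p (chrX:53054306-53054327) and miR-503-5p (chrX:53054027-53054049) lie in 1 cluster on the minus strand and have like but not identical seeds. The let-7 pair, the miR-181 pair and the miR-290 cluster members each share a seed. miR-741-3p (chrX:66796809-66796831) and miR-871-3p (chrX:66810438-66810460), both on the minus strand, were the most read miRNAs of both libraries. miR-128-1-5p (chr1:128202369-128202389, plus strand) had the lowest ratio.
miR-202-5p: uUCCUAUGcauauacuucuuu
miR-202-3p: aGAGGUAUagcgcaugggaaga
miR-204-5p: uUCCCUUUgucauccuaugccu
miR-322-5p: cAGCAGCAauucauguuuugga
miR-503-5p: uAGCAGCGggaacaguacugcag
let-7b-5p: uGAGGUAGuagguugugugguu
let-7i-5p: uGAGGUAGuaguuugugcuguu
miR-181a-5p: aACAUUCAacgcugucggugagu
miR-181b-5p: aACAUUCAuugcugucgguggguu
miR-291a-3p: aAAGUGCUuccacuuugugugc
miR-294-3p: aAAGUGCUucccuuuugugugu
miR-295-3p: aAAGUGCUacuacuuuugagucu
miR-741-3p: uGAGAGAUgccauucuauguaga
miR-871-3p: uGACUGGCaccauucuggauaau
miR-128-1-5p: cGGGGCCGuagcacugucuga

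Many miRNAs of modest abundance made up a larger part of the miRNA pool in zygotene than in leptotene cells, while miR-741-3p and miR-871-3p, the most abundant ones, made up a smaller part. Counted by the mature sequences of the reference, miRNAs took 28.9% of all zygotene reads and 39.3% of all leptotene reads. The share was 46.2% in the pre-leptotene library and 1.38% in the pachytene library. The reference lacks some miRNAs, among them miR-34c-5p, miR-143-3p and miR-30d-5p. Reads that overlap other miRNA hairpins, 5.86% in zygotene and 3.64% in leptotene, and reads within other miRNA transcripts, 1.17% and 1.11%, were not counted. Because the miRNA shares differ, levels are given as reads per 1000000 miRNA reads so counted. By this count 239 miRNAs had at least 100 reads in at least 1 of the pair. Of these, 27 (11.3% of those compared) were at least 4-fold higher in zygotene and 0 (0%) were at least 4-fold lower. At least 2-fold differences numbered 86 higher (36%) and 2 lower (0.837%). The median log2 ratio of zygotene to leptotene was 0.71, with 198 miRNAs above 0 and 41 below it. These counts are relative to the miRNA pool: by all reads 151 were above 0 and 88 below, by TMM 123 and 116, and by DESeq2 119 and 120. A miRNA that reached 100 reads only in zygotene had to be higher there, so a count over those compared leans towards the library with the higher value.

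The 27 higher miRNAs depended in number on the scaling. Scaled by all reads, 17 were at least 4-fold higher and 1 lower, with a median log2 ratio of 0.27, and at least 2-fold differences numbered 48 higher and 7 lower. With edgeR's TMM factors there were 15 higher and 1 lower (39 and 13 at 2-fold, median 0.06). With DESeq2's size factors there were 13 higher and 1 lower (38 and 17 at 2-fold), and the median is 0 by construction. The 1 lower miRNA under each of the 3 scalings was miR-128-1-5p. The miR-506 family, the X-linked family to which miR-741-3p and miR-871-3p belong, took a smaller share of the miRNA pool in zygotene, and scaling by the miRNA reads outside it moved every log2 ratio down by 0.63 and gave 15 higher and 1 lower. All 25 miRNAs chosen as the largest rises and falls kept their sign with all reads, TMM and DESeq2 scaling, which was fixed in advance. Each of these scalings moves every log2 ratio down by the same amount, and that amount is less than any of the chosen rises.

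The leptotene library lay close to the other library from day 9. Between leptotene and pre-leptotene, 221 of the 239 miRNAs differed by less than 2-fold, and the median absolute log2 difference was 0.23, against 0.77 between zygotene and leptotene. Of the 27 miRNAs at least 4-fold higher in zygotene, 23 differed by less than 2-fold between leptotene and pre-leptotene.

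**Figure D1:**
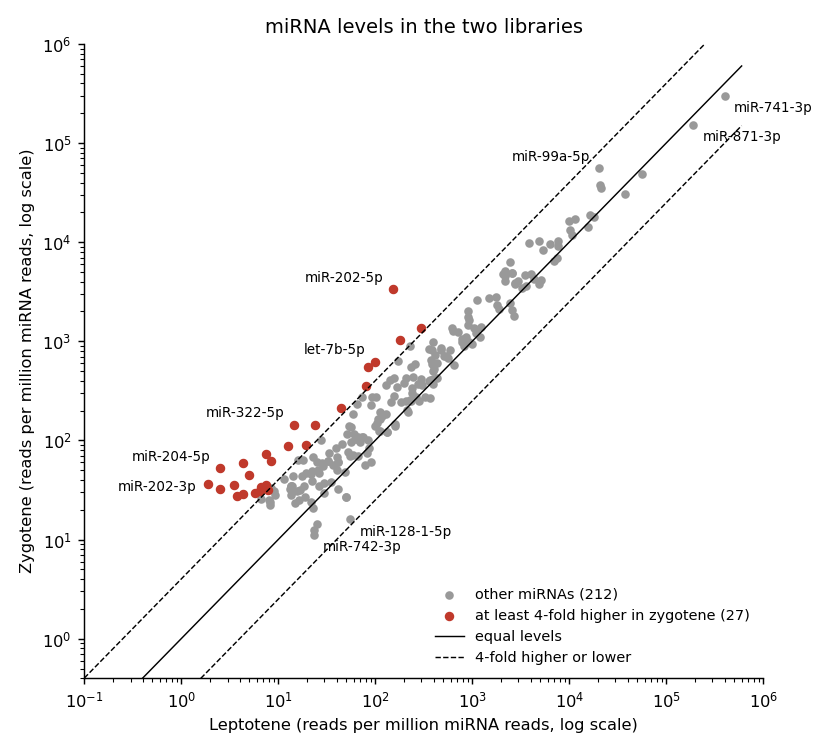
Zygotene level (y axis) against leptotene level (x axis) of the 239 miRNAs, both in reads per 1000000 miRNA reads on log scales, 1 point a miRNA and 1 library an axis. The 27 red points lie on or above the upper dashed line, which marks a 4-fold higher zygotene level, and no point lies below the lower dashed line.

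The most abundant miRNAs were nearly the same set in both libraries. miR-741-3p took 30.1% of zygotene and 40.3% of leptotene miRNA reads, and miR-871-3p took 15.3% and 19.1% in the same order. miR-470-5p, another member of their family, took 4.87% in zygotene and 5.62% in leptotene, and miR-743b-3p took 3.05% and 3.80%. The next most abundant miRNAs stood the other way round: miR-99a-5p was at 5.55% in zygotene and 2.02% in leptotene, miR-10b-5p at 3.82% and 2.09%, and miR-99b-5p at 3.51% and 2.12%. miR-30c-5p took 1.90% of zygotene and 1.65% of leptotene miRNA reads, and miR-183-5p took 1.71% and 1.14%. miR-465a-5p took 1.80% in both. The 10 most abundant miRNAs together held 71.6% of zygotene and 80.0% of leptotene miRNA reads, and miR-7a-5p, at 1.41% and 1.56%, was among the 10 in leptotene only.

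miR-202, known as a gonadal miRNA of Sertoli cells, stood furthest apart. miR-202-5p had 14870 zygotene reads and 728 leptotene reads, or 3354 and 151 reads per 1000000 miRNA reads. The log2 ratio was 4.47, with a counting interval of 4.36 to 4.58, a 22.2-fold higher zygotene level. The other arm, miR-202-3p, had 163 zygotene and 9 leptotene reads, a log2 ratio of 4.30. miR-204-5p, best known from epithelia of the eye and kidney, had 235 zygotene and 12 leptotene reads, and its log2 ratio was 4.41, with an interval of 3.58 to 5.38. These 3 ratios rest on fewer than 20 leptotene reads except for miR-202-5p, and their intervals are wide accordingly.

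Several miRNAs of the X chromosome that do not belong to the miR-506 family were among the higher ones. The cluster that holds miR-322, miR-503 and miR-351 gave 5 called arms from these hairpins. In it, miR-322 is the rodent counterpart of human miR-424 and restrains the cell cycle. miR-322-5p had 640 zygotene and 70 leptotene reads (144 and 14.5 per 1000000 miRNA reads, log2 ratio 3.31), and miR-322-3p had 2455 and 409 reads (a log2 ratio of 2.70). miR-503-5p had 320 zygotene and 36 leptotene reads, a log2 ratio of 3.27, and miR-503-3p had 141 and 38 reads, a log2 ratio of 2.01. miR-351-5p had 4535 zygotene and 868 leptotene reads, a 5.67-fold higher level. miR-450b-5p, also on the X chromosome, had 130 and 28 reads (2.33), and miR-652-3p had 949 and 215 reads (2.26). In a list of 33 X-linked names outside the miR-506 family, 29 were in the reference, 16 passed the read minimum and 6 were at least 4-fold higher, with a median log2 ratio of 1.73 and a range of -0.60 to 3.31, against 0.71 over all 239. Summed over the list, these miRNAs took 0.648% of zygotene and 0.5003% of leptotene miRNA reads, but 0.187% of all zygotene and 0.197% of all leptotene reads, so the direction of the sum depended on the scaling.

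Members of the miR-506 family stood on both sides of 0. All 38 names were in the reference and made 36 entries, since miR-465a-3p, miR-465b-3p and miR-465c-3p share their first 18 nt. Of the entries, 29 passed the minimum, 20 of them above 0 and 9 below it. Its summed share of miRNA reads was 60.9% in zygotene, against 74.8% in leptotene and 74.4% in pre-leptotene. miR-547-3p, with 639 zygotene and 115 leptotene reads and a log2 ratio of 2.59, was the only member at least 4-fold higher, and miR-881-3p, with 45795 and 23261 reads and a log2 ratio of 1.10, was the only other at least 2-fold higher. miR-742-3p, with 49 zygotene and 113 leptotene reads, was the lowest at -1.09. The family's median log2 ratio was 0.25 when scaled by miRNA reads, but -0.19 by all reads, -0.40 by TMM and -0.46 by DESeq2, so its direction depended on the scaling.

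let-7 and miR-181, families that are known for building up as cells differentiate, were higher in zygotene member by member. Scaled by miRNA reads, all 7 let-7 entries compared were at least 2-fold higher, against 86 (36%) of all 239 miRNAs. Their median log2 ratio was 1.42 by this scaling. The median was 0.98 by all reads, 0.77 by TMM and 0.71 by DESeq2, so not all 7 reached 2-fold under those. let-7b-5p had 2762 zygotene and 476 leptotene reads (623 and 98.9 per 1000000 miRNA reads, log2 ratio 2.65), and let-7i-5p had 5986 and 1418 reads (2.20). let-7a-5p and let-7c-5p, which share their first 18 nt and were counted as 1, had 21361 zygotene and 9926 leptotene reads and the lowest ratio of the family, 1.22. The family's share of miRNA reads was 1.91% in zygotene, against 0.734% in leptotene and 0.772% in pre-leptotene. With miR-98-5p, 8 entries shared the let-7 seed, at a median log2 ratio of 1.497. All 4 miR-181 entries were above 0, with miR-181b-5p at 391 zygotene and 61 leptotene reads (2.80), miR-181a-5p at 1578 and 390 (2.13), miR-181d-5p at 1927 and 1190 (0.81) and miR-181c-5p at 456 and 297 (0.74).

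Members of the miR-290 cluster, which mark pluripotent and early germ cells, were low in both libraries and higher in zygotene. miR-291a-3p had 143 zygotene and 12 leptotene reads, a log2 ratio of 3.69. miR-294-3p had 183 and 55 reads (1.85), and miR-295-3p had 270 and 120 reads (1.29). In a list of this cluster and of miR-302 and miR-367, all 7 entries compared, each from the miR-290 cluster, were at least 2-fold higher. That compares with 86 (36%) of all 239 miRNAs. The list's median log2 ratio was 1.56 by miRNA reads, 1.12 by all reads, 0.90 by TMM and 0.85 by DESeq2. Under TMM and DESeq2, not all 7 reached 2-fold. miR-293-5p of the same cluster, outside the list, had 305 and 193 reads (0.78). The list's share of miRNA reads was 0.0551% in zygotene and 0.0191% in leptotene. Of its names, 4 were at 0 in both: miR-290a-3p, miR-302b-3p, miR-302d-3p and miR-367-3p.

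Further miRNAs at least 4-fold higher came from several families. miR-196a-5p, encoded in Hox clusters, had 260 zygotene and 21 leptotene reads (log2 ratio 3.75), and miR-135a-5p had 198 and 24 (3.16). miR-125b-2-3p had 278 zygotene and 41 leptotene reads (2.88). miR-369-3p had 123 and 18 reads (2.89). In a list of the imprinted Dlk1-Dio3 cluster, on chromosome 12, miR-495-3p was the highest, with 129 and 21 reads (2.74). All 16 entries of the list that were compared were above 0, with a median of 0.92. The list left out other miRNAs of that chromosome, such as miR-369-3p and miR-1193-3p (-0.005). Of all 23 miRNAs compared on chromosome 12, 22 were above 0. miR-34b-3p had 136 zygotene and 31 leptotene reads (2.25) and miR-34a-5p had 599 and 268 (1.28), from a family that becomes prominent in later germ cells, where its list held 1.79% of pachytene miRNA reads, against 0.0198% in zygotene and 0.00671% in leptotene. The remaining called miRNAs were miR-708-5p, miR-3068-5p, miR-136-3p and miR-1839-5p, with log2 ratios of 2.20 to 2.35. The miR-17/92 and miR-106b/25 list, whose members promote proliferation, had 9 of 9 entries above 0, none called, and a median of 0.71, the same as that of all miRNAs compared. The sensory-organ cluster that holds miR-183-5p had 3 of 3 entries above 0 at a median of 0.91, the miR-15/16 list, which targets cell cycle genes, had 4 of 5 above 0 at 0.53, and the miR-30 list had 5 of 5 at 0.37. The medians of the miR-15/16 list by TMM and DESeq2 (-0.12 and -0.18) and of the miR-30 list by all reads, TMM and DESeq2 (-0.07, -0.28 and -0.34) lay below 0. The Hox-linked list had 3 of 3 entries above 0 at a median of 1.36.

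Relative to the miRNA pool, few miRNAs were lower in zygotene. miR-128-1-5p had 71 zygotene and 267 leptotene reads (16.02 and 55.5 per 1000000 miRNA reads), with a log2 ratio of -1.79 and an interval of -2.19 to -1.41. On reads equal to its full mature sequence, 6 and 15 of them, the log2 ratio was -0.99. miR-742-3p was the only other at least 2-fold lower when scaled by miRNA reads. miR-3074-5p (55 and 112 reads), miR-3475-3p (118 and 239), miR-671-3p (119 and 240) and miR-3105-3p (63 and 122) followed, with log2 ratios between -0.91 and -0.84. miR-501-3p, with 7933 zygotene and 13030 leptotene reads, was the most abundant of the 10 lowest, at -0.60, and miR-7a-1-3p (-0.56), miR-423-5p (-0.47) and miR-7068-3p (-0.46) completed them. Counting only such full-length reads turned 2 of these miRNAs to values just above 0, miR-742-3p (0.01, on 12 and 15 reads) and miR-3475-3p (0.20, on 11 and 12 reads).

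**Figure D2:**
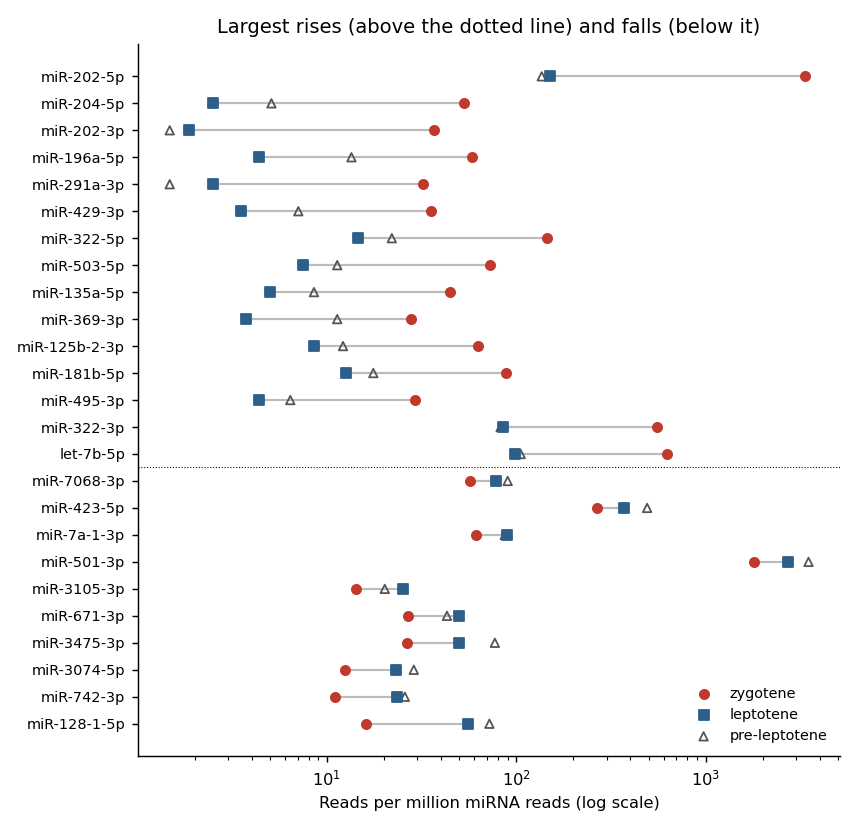
Levels of the 15 miRNAs with the highest and the 10 with the lowest ratio of zygotene to leptotene, in reads per 1000000 miRNA reads on a log scale, with zygotene as circles, leptotene as squares and pre-leptotene as open triangles, 1 library each. miR-202-5p reaches 3354 in zygotene against 151 in leptotene.

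miRNAs known from other cell types were mostly higher in the zygotene library, as were 198 of all 239 miRNAs at a median of 0.71, and their part in the differences above was not tested. The gonadal pair, miR-202-5p and miR-202-3p, held 0.339% of zygotene miRNA reads, against 0.0153% in leptotene, 0.0138% in pre-leptotene and 0.0465% in pachytene. A stromal list had 7 of 7 entries above 0 and none called, with a median log2 ratio of 0.99. Its share was 10.2% in zygotene, 4.53% in leptotene and 4.63% in pre-leptotene. Most of that share was miR-99a-5p (5.55% in zygotene and 2.02% in leptotene) and miR-10b-5p (3.82% and 2.09%). Both were among the 10 most abundant miRNAs of each library. miR-199a-5p, a marker of connective tissue, had 7853 zygotene and 4397 leptotene reads (0.95), and miR-214-3p had 202 and 106 (1.05). miR-126a-3p, of endothelium, had 1810 and 679 reads (1.53), and miR-142a-3p, of white blood cells, had 100 and 40 (1.44). The red cell miRNA miR-451a had 4 zygotene and 7 leptotene reads, and the myeloid miRNA miR-223-3p had 13 and 0, so the 5 blood names in the reference summed to 0.00429% of zygotene and 0.00133% of leptotene miRNA reads. The epithelial list had 5 of 6 entries above 0, with miR-429-3p at 158 and 17 reads (3.33) and miR-141-3p the 1 below it (-0.37). miR-9-5p, of neural tissue, had 656 zygotene and 762 leptotene reads (-0.10), and the muscle miRNA miR-206-3p was at 0 in both. None of these miRNAs separates leptotene from zygotene cells by definition, so the stage labels themselves could not be checked against a marker here.

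Shortened 3' ends of miRNAs were more frequent in zygotene, and additions at the 3' end moved in no common direction. Over all miRNA reads read against their hairpin, 63.1% in zygotene and 72.4% in leptotene ended at the annotated base. Ends short of it made up 18.8% and 11.1% in the same order, and templated ends beyond it 9.23% and 8.63%. Ends that carried 1 to 3 bases not encoded by the hairpin made up 8.07% of zygotene and 7.35% of leptotene reads, of which a single A made up 2.64% and 2.34% and a single T 3.56% and 3.28%. Pooled shares follow the most abundant miRNAs, so each of the 99 miRNAs with at least 1000 reads in both libraries was also taken alone. The shorter share was then higher in zygotene for 77 of 99, the mean length was lower for 75 of 99, and the tailed share was higher for 41 and lower for 58, with a mean of 16.1% in zygotene and 16.97% in leptotene. Other pooled directions also turned: the share at the annotated base averaged 43.1% in zygotene and 42.7% in leptotene and was higher for 60 of 99, and templated longer ends averaged 19.4% and 20.5% and were lower for 54. The 99 miRNAs kept their commonest length with 2 exceptions.

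Single miRNAs showed where these shares differed. The let-7 family had more shortened ends: let-7f-5p was shorter in 22.3% of zygotene and 10.3% of leptotene reads, let-7a-5p with let-7c-5p in 18.5% and 10.1%, and let-7g-5p in 15.6% and 6.67%. miR-125b-5p carried untemplated bases in 30.8% of zygotene reads, with an interval of 29.6% to 32.04%, and in 43.5% of leptotene reads, with an interval of 41.7% to 45.3%, against 40.2% in pre-leptotene. miR-125a-5p followed at 12.9% in zygotene and 23.3% in leptotene, and its commonest length was 22 nt in zygotene and 24 nt in leptotene. miR-465c-5p, mostly with an added T, stood at 49.6% and 58.7%. In the other direction, miR-30e-3p was tailed in 31.96% of zygotene and 18.7% of leptotene reads, and miR-17-5p ended in an added A in 24.0% and 14.7%. The most read miRNAs hardly differed, with miR-741-3p tailed in 3.83% and 3.78% and miR-871-3p in 7.39% of reads in both. Of the 15 miRNAs that differed by over 5 percentage points, 3 were higher and 12 lower in zygotene.

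The balance of the arms of a hairpin differed little, with a median absolute log2 difference of 0.45 over 32 hairpins. The largest differences were those of the main X-linked hairpins. miR-741 had 1248 reads of its 5' arm and 1333271 of its 3' arm in zygotene, against 754 and 1937538 in leptotene, so the log2 ratio of the arms was higher by 1.27 in zygotene. miR-871 had 12528 reads of its 5' arm in zygotene and 8392 in leptotene, a difference of 1.02.

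Reads of piRNA length were more frequent in zygotene, and more of them began with T. Reads of 25 to 32 nt made up 33.7% of zygotene and 27.5% of leptotene reads. The first base was T in 58.2% of them in zygotene and 45.0% in leptotene, and G in 21.1% and 33.99%. Part of this window is not piRNA: reads with the A box of a tRNA, the internal promoter element near the tRNA's 5' end, made up 11.999% of the zygotene and 22.7% of the leptotene window, and they begin mostly with G. Tags outside the annotated classes, called unannotated here, made up 72.2% of the zygotene and 59.2% of the leptotene window, or 3724125 and 1995506 reads in 733097 and 446336 distinct tags. The annotation was incomplete, so some pieces of rRNA, of tRNA and of small nucleolar RNAs remain among them.

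**Figure D3:**
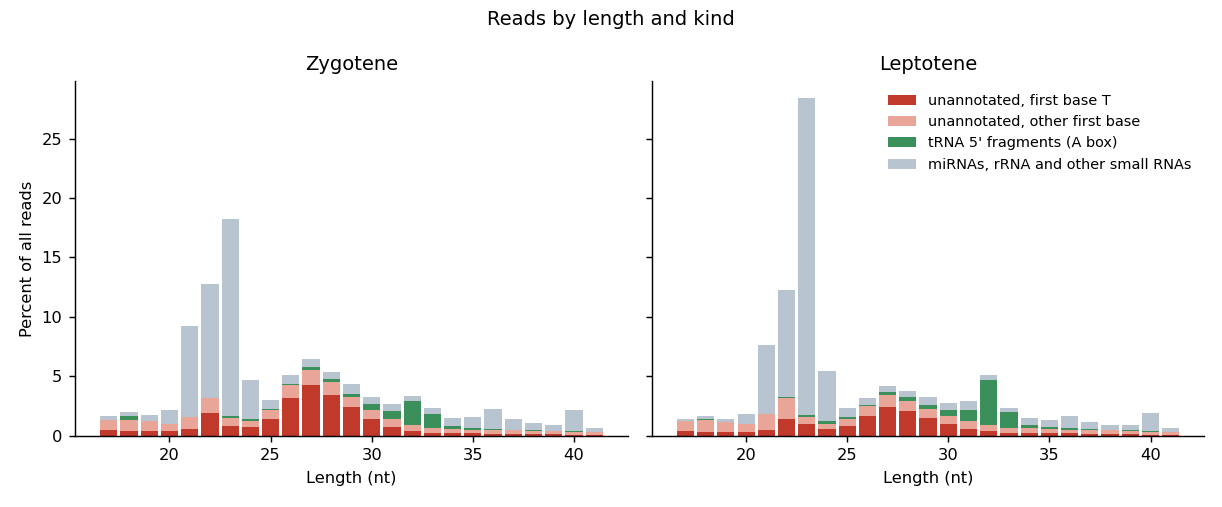
Percent of all reads (y axis) by length in nt (x axis) in the zygotene library (left) and the leptotene library (right), with bars stacked by kind. The 23 nt bar holds 18.2% of zygotene and 28.4% of leptotene reads, unannotated reads that begin with T form the larger peak near 27 nt in zygotene, and the tRNA 5' fragments stand at 30 to 33 nt.

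Among the unannotated reads the difference in first base was smaller but in the same direction. T was first in 71.5% of zygotene and 63.1% of leptotene reads of 25 to 32 nt, and in 72.0% and 63.7% of distinct tags. Both libraries peaked at 27 nt, with 853581 zygotene and 416201 leptotene reads. T was first in 76.5% of zygotene and 70.2% of leptotene reads at that length, in 63.9% and 54.5% at 25 nt and in 47.4% and 40.7% at 32 nt. The zygotene share was the higher one at each of these lengths.

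Base 10, an A where a piRNA is made by the ping-pong cycle, differed less. Among all 25 to 32 nt reads that did not begin with T, base 10 was A in 19.6% in zygotene and 15.1% in leptotene. Among unannotated reads the values were 31.5% and 29.9%, and in reads that did begin with T they were 33.2% and 32.3%. In reads with first base T, the share with A at base 10 was greatest at 29 nt in both libraries, 42.8% in zygotene and 39.9% in leptotene.

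Few sequences of piRNA length were shared. Of the distinct 25 to 32 nt tags, 99077 occurred in both libraries, 12.8% of the zygotene and 20.9% of the leptotene tags. They carried 56.8% of zygotene and 67.9% of leptotene reads of that length, but among unannotated tags the shared ones carried 42.8% and 48.2%. Among tags with at least 10 reads the shared parts were 31.2% of zygotene and 64.8% of leptotene tags. Rarefied to 12247017 reads in all, the zygotene library would hold 720002 distinct tags of this length, 1.52 times the 474652 of leptotene, with more of its reads in this window at that depth. Tags of 20 to 24 nt, the length of miRNAs, were shared for 19.1% of zygotene and 23.8% of leptotene tags and carried 92.9% and 95.003% of reads.

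Unannotated tags private to 1 library differed in their first base and in the stages where they recurred. The 646522 tags private to zygotene began with T in 71.6%, and 6.37% of them were found in pachytene spermatocytes and 3.03% in pre-leptotene. The 359761 tags private to leptotene began with T in 61.0%, and 4.50% of them were found in pachytene and 4.35% in pre-leptotene. With at least 10 reads, 16430 tags were private to zygotene, 24.8% of them found in pachytene and 15.1% in pre-leptotene. The 3246 private to leptotene with that many reads were found in pachytene for 15.1% and in pre-leptotene for 34.3%. The pre-leptotene and leptotene libraries are both from day 9. More of the private tags were found in the cultured spermatogonial stem cell library than in either of these stages. It held 16.5% of the tags private to zygotene and 12.7% of those private to leptotene. With at least 10 reads these parts were 60.9% and 42.6%. The shared tags began with T in 74.8%, and 66.3% of them were also in the cultured spermatogonial stem cell library.

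The 5 tags that follow are the most abundant unannotated ones of zygotene and 3 private to it that match 1 gene each, the most read of each gene, shown with bases 1 and 10 in capitals, the positions that mark piRNAs.
shared tag 1: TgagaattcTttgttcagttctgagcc
shared tag 2: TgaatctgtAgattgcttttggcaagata
private tag 1: CttgagaatTaaaatgaacgaaaat
private tag 2: TgataagtaTtccagtgtggactagctc
private tag 3: TctgttctgAttctttgggcaccca
Shared tag 1 had 17508 zygotene and 7258 leptotene reads, the most in both libraries, and matched transcripts of 10 genes in sense and 29 in antisense. Shared tag 2 had 13399 and 4273 reads and matched 9 genes in sense and 41 in antisense. Per 1000000 unannotated reads of that length their log2 ratios were 0.37 and 0.75. Private tag 1, from the mitochondrial gene mt-Atp8, had 91 zygotene reads, private tag 2, from Faf2 on chromosome 13, a gene of protein degradation at the endoplasmic reticulum, had 89, and private tag 3, from mt-Co1, had 77. Each had 0 leptotene reads, and with 0 set to 3 reads their log2 ratios are at least 4.02, 3.99 and 3.78. The 5 most abundant tags private to leptotene had 110 to 276 reads, and 4 of them had 102 to 309 reads in pre-leptotene. Those of 140 and 123 reads hold the start of the valine tRNA family described below without its first bases, so they are tRNA pieces. Over the 2158 unannotated tags with at least 100 reads in either library, 80 (3.71%) were at least 4-fold higher in zygotene and 104 (4.82%) lower. The 662 of them with another first base than T gave 38 higher and 76 lower, and the 1496 with T gave 42 higher and 28 lower.

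By origin the unannotated pools were divided in similar shares. Tags that matched 1 protein-coding gene in sense held 31.3% of zygotene and 32.03% of leptotene reads, tags antisense to 1 gene 2.37% and 1.90%, tags in 10 or more genes 8.31% and 7.73%, and tags in no transcript 47.2% and 47.9%. The first-base difference was widest in the first and last of these. T was first in 80.1% of zygotene and 71.3% of leptotene reads in sense to 1 coding gene, in 63.6% and 53.3% of reads in no transcript, in 71.9% and 67.1% of reads in 2 to 9 genes, and in 80.0% and 80.1% of reads in 10 or more genes. In the reads of 10 or more genes that did not begin with T, base 10 was A in 63.1% in zygotene and 56.7% in leptotene, the highest shares of any origin.

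Reads in protein-coding genes came mainly from 3' untranslated regions, and more so in zygotene. Of the reads in coding genes with at least 100 reads, 75.7% in zygotene and 65.9% in leptotene lay in the 3' untranslated region, and 16.96% and 23.9% in the coding sequence. Fragments of messenger RNA and piRNAs both lie in this pool. Of 2063 genes, 28 (1.36%) were at least 4-fold higher in zygotene and 49 (2.38%) lower, and the median log2 ratio was 0.13. The 7 mitochondrial genes among them were all at least 4-fold higher, which left 21 higher of 2056 others.

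The genes with most tags were the same kind in both libraries. D10Wsu102e, one of the genes that shared tags 1 and 2 match, had 33360 zygotene and 12801 leptotene reads, or 8958 and 6415 per 1000000 unannotated reads, a log2 ratio of 0.48. Tmem245 had 16996 and 8789 reads (0.05), and Abl2, a tyrosine kinase gene, had 11935 and 5038 (0.34). Fth1, the ferritin heavy chain gene, had 4730 and 5423 reads (-1.10). Among larger differences, Hmmr had 1148 zygotene and 153 leptotene reads (2.01) and Chrna4, a nicotinic receptor subunit gene, 510 and 53 (2.37), while Pole3, a DNA polymerase epsilon subunit gene, had 17 and 120 (-3.72) and Serbp1 had 147 and 520 (-2.72). These genes were chosen after their values were seen.

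Genes that give most piRNA-length reads in pachytene spermatocytes were mostly higher in zygotene than in leptotene. Of the 20 genes with most such reads in pachytene, 2 were at least 4-fold and 7 at least 2-fold higher in zygotene. Of these 20, 1 was below 0, and the median log2 ratio was 0.90, against 0.13 over all 2063. Over the 2056 genes compared that are not mitochondrial, 21 were at least 4-fold and 204 at least 2-fold higher, and 905 were below 0. The 10 of the 20 pachytene genes that are not protein-coding had a median of 1.21, against 0.61 over the 118 such genes compared. Of these 10, 6 had under 100 leptotene reads and so passed the minimum through zygotene. Gm49794, a long intergenic RNA on chromosome 17, had 1350 zygotene and 108 leptotene reads (2.74) and 93060 reads in pachytene. Gm10505, also on chromosome 17, had 701 and 75 reads (2.32) and 59482 in pachytene. 1700001L05Rik, on chromosome 15, had 8509 and 3452 reads (0.40) and 58084 in pachytene. Gm21269 had 111 and 43 reads (0.47), and Exoc8, an exocyst subunit gene, was the 1 below 0, with 2381 and 1518 reads (-0.25).

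The ping-pong signature, an overlap of 10 nt between the 5' ends of tags from opposite strands, was alike in both libraries. Pairs of unannotated tags on opposite strands of 1 transcript with that overlap numbered 34546 in zygotene and 10803 in leptotene. This was 3.36 times the mean of the 23 other overlaps in zygotene and 3.29 times in leptotene. T at the first base of 1 tag stood with A at base 10 of the other in 96.3% of zygotene and 97.3% of leptotene pairs, as pairing at this overlap requires when the first base is T. Of the tags placed on transcripts, 6.13% in zygotene and 3.75% in leptotene were in such a pair, and the deeper library has more chances to hold both partners. Pairs among tags of 10 or more genes stood at 2.84 and 2.83 times the mean, and the other pairs at 3.75 and 3.68 times.

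**Figure D4:**
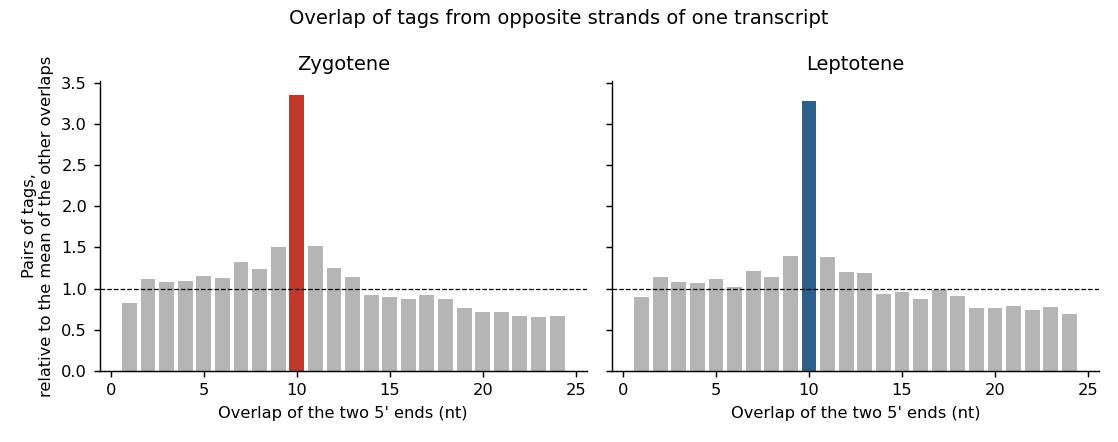
Number of pairs of unannotated 25 to 32 nt tags from opposite strands of 1 transcript (y axis, relative to the mean of the 23 other overlaps) by the overlap of their 5' ends in nt (x axis), in zygotene (left) and leptotene (right). The 10 nt bar stands at 3.36 in zygotene and 3.29 in leptotene, the tallest in both.

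tRNA 5' fragments stood in opposite directions by how they were counted. The reference gave the sequences of 13 nuclear and 22 mitochondrial tRNAs, and reads that began at the first base of one made up 0.876% of zygotene and 0.543% of leptotene reads, a ratio of 1.61. The nuclear part stood at 0.635% and 0.507% (1.25) and the mitochondrial part at 0.240% and 0.0367% (6.55). Most nuclear tRNAs are outside those 13, so reads with the tRNA A box at its usual distance from their first base were also counted, a measure added after the data were seen. These made up 6.82% of zygotene and 9.10% of leptotene reads, a ratio of 0.750. The same pattern 1 base further along was found in 0.129% of zygotene and 0.203% of leptotene reads, and 2 to 5 bases further along in at most 0.0263% of zygotene and 0.0301% of leptotene reads.

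Families of tRNA fragments, grouped by their first 18 nt, differed among themselves. The 4 most abundant in the sum of both libraries are shown to make the groups plain, and the first 3 begin as glycine tRNAs are known to begin.
family 1: gcattggtggttcagtgg
family 2: gcatgggtggttcagtgg
family 3: gcattggtagttcaatgg
family 4: gtttccgtagtgtagtgg
Family 1 made up 1.93% of zygotene and 2.01% of leptotene reads (log2 ratio -0.06). Family 2 made up 1.03% and 2.17% (-1.07), and family 3 made up 0.701% and 1.56% (-1.16), with a mean length of 28.8 nt in zygotene and 31.5 nt in leptotene. Family 4 shares its start with the valine tRNA n-TVcac9 and made up 0.763% and 1.09% (-0.52), while reads that matched n-TVcac9 throughout made up 0.577% and 0.466%. Of 41 families with at least 1000 reads in either library, 15 were below 0 and 25 above. A family with 0 zygotene reads was given no ratio, so the counts fall short of 41. Such a family, with at least 1000 leptotene reads, would stand far below 0, and it is left out of the median and range as well. Over the families with a ratio, the median was 0.18 and the range -1.16 to 3.55. Reads with the A box were shorter in zygotene: 12.8% of them in zygotene and 6.42% in leptotene were 17 to 24 nt long, and 64.4% and 72.3% were 30 to 33 nt long.

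rRNA fragments were more frequent in zygotene. Reads within an rRNA of the reference made up 1.04% of zygotene and 0.658% of leptotene reads, a ratio of 1.58. The nuclear part alone stood at 0.658% and 0.615%, a ratio of 1.07. Nearly all of it was credited to Gm22109, but a read that matched several rRNA genes was credited to the first by name. With near matches, a family of reads at the 5' end of the 28S rRNA and rRNA-like long RNAs added, also after the data were seen, the share was 7.52% in zygotene and 4.71% in leptotene, a ratio of 1.60. Small nucleolar RNAs, which guide the modification of rRNA, gave 2.96% of zygotene and 2.44% of leptotene reads, and the small nuclear RNAs of the spliceosome 0.290% and 0.286%.

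The widest difference of any RNA class was that of mitochondrial transcripts. They gave 140451 zygotene and 11955 leptotene reads, 0.917% and 0.0976% of all reads, a 9.39-fold higher share in zygotene. The rRNAs of the mitochondrial ribosome stood at 0.381% and 0.0436%, with 44746 zygotene and 4513 leptotene reads of mt-Rnr2 (7.93-fold) and 13609 and 825 of mt-Rnr1 (13.2-fold). Mitochondrial tRNAs stood at 0.351% and 0.0437%. Among them, reads from the first base of mt-Ts2, a serine tRNA, numbered 25551 in zygotene and 1733 in leptotene (11.8-fold), and those of mt-Tq, the glutamine tRNA, 5366 and 1814 (2.37-fold). Messenger RNAs of the respiratory chain stood at 0.185% and 0.0103%, a 17.9-fold higher share, with mt-Co1, a cytochrome oxidase subunit, at 9469 and 371 reads. Of the zygotene reads in these messenger RNAs, 50.9% also matched nuclear transcripts, which hold copies of mitochondrial sequence.

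Nearly all mitochondrial genes were higher in zygotene. Of 37 genes, 34 had at least 100 reads in 1 library and 31 of these were at least 4-fold higher in zygotene, with a median log2 ratio of 3.83 and a range of 1.62 to 5.90. The 3 under 4-fold were the tRNAs mt-Tq, mt-Ts1 and mt-Ty. The mitochondrial share was 0.686% in the library of cultured spermatogonial stem cells. It was 0.0644% in pre-leptotene, 0.0976% in leptotene and 0.917% in zygotene cells, followed by 0.158% at the pachytene stage. Haploid cells stood at 0.101% (round spermatids) and 2.35% (sperm). The zygotene value was thus above those of the spermatocyte libraries on either side of it, with 1 library a stage.

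**Figure D5:**
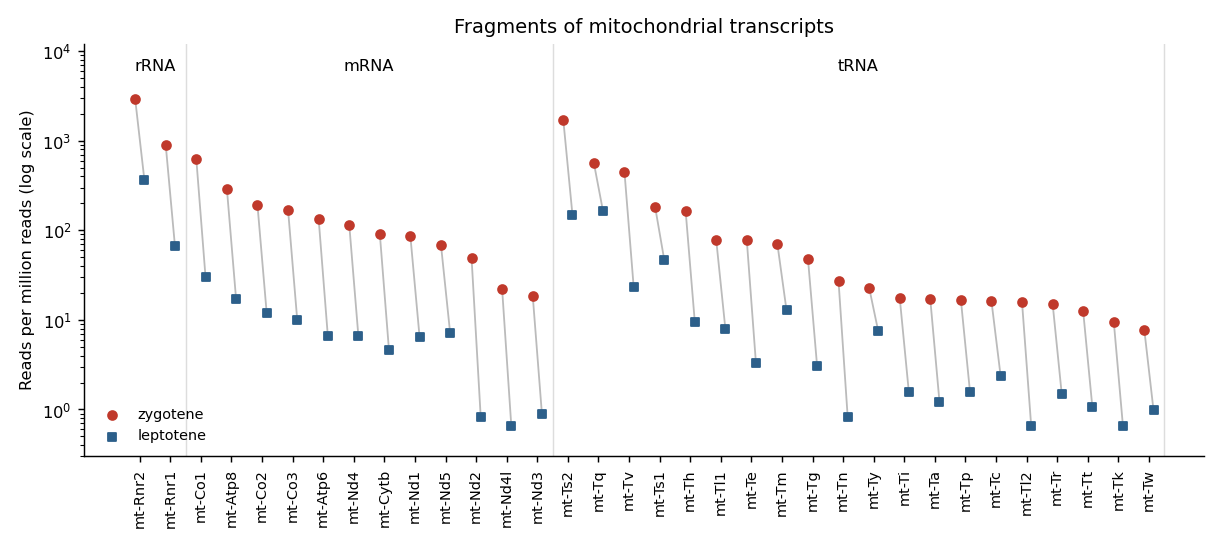
Reads per 1000000 reads (y axis, log scale) of the 34 mitochondrial genes with at least 100 reads in 1 library, grouped as rRNA, mRNA and tRNA along the x axis, with zygotene as circles on the left and leptotene as squares on the right of each pair, 1 library each. Every zygotene point lies above its leptotene point, by 1.62 to 5.90 on the log2 scale.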

How the data were processed

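Small RNA libraries of mouse germ cells were made from total RNA, per the labels' protocols, and the authors deposited raw counts, 1 read count for each distinct tag of 17 to 41 nt. Bowtie, mm10 and GRCm38 are named in the submitters' processing notes, with no role given; how adapters were trimmed and reads filtered is not given in the sources used here. Among these, reads of 18 to 26 nt were assigned to a miRNA when their first 18 nt equalled a RefSeq mature sequence (GRCm38.p6; 1738 sequences, 1660 distinguishable entries), so shared starts were counted once. Other tags were matched exactly to GENCODE vM21 transcripts, and near rRNA matches with up to 2 mismatches were found with BWA 0.7.19-r1273. No genome was used, so tags outside transcripts have no position.

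Levels are reads per 1000000 miRNA reads, and a miRNA was called at a log2 ratio of 2 or more with at least 100 reads in 1 library, a count of 0 being set to 3. With 1 library a side there is no test. Intervals are exact binomial (Clopper-Pearson for shares, conditional for ratios) at 95% and, since reads carry no molecular identifiers, cover counting error only. The miRNAs named are the 15 largest rises, the 10 largest falls, the 10 most abundant of each library and the extremes of each list; further genes and tags are named as stated beside them. Members and lists were chosen with earlier results of these data known. Alternatives were other scalings (edgeR 4.0.16 TMM factors, DESeq2 1.42.0 size factors), full-sequence matching, other read minimums, other length windows, distinct tags and other fragment definitions. The steps were tested on simulated data, with Python 3.11.15, numpy 2.4.6, scipy 1.17.1 and R 4.3.3.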

Additional observations from a re-analysis of the deposited data

How the results depend on the processing

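With 1 library a stage, direction and size rest on single libraries, and no replicate could be left out. No paired analysis was possible because each stage has 1 library and no replicate number. The 27 higher miRNAs became 17 scaled by all reads, 15 by TMM, 13 by DESeq2, 15 by miRNA reads outside the miR-506 family and 73 with a minimum of 10 reads, and the 0 lower became 1, 1, 1, 1 and 8, and 1 (miR-671-3p, -2.58) with full sequences, where 19 were higher. Of the 25 named miRNAs, 2 of the 23 that could be compared changed sign with full sequences. List medians changed sign for 2 of 19 lists by all reads, 3 by TMM, 4 by DESeq2 and 1 with full sequences. The cause was not tested. The tailed share was 0.721 points higher in zygotene pooled over reads, but the mean over 99 miRNAs was -0.912 points. The 25 to 32 nt share was higher in zygotene by 6.16 points, by 5.39 for 24 to 33 nt, 8.602 over distinct tags, and 1.77 or 10.2 without the reference or all annotated classes. First base T was higher by 13.3 points, or 13.9, 8.16, 8.58 and 8.38 under the alternatives, and base 10 A by 4.50, or 4.66, 1.71, 2.49 and 1.55. The shared part of leptotene tags, 20.9%, was 23.4% with 2 reads, 64.8% with 10, 20.3% rarefied and 19.4% for unannotated tags. The tRNA ratio of 1.61 was 1.35 at 28 to 36 nt, 1.38 outside miRNAs, 1.25 for nuclear tRNAs and 0.750, reversed, by the A box, and the rRNA ratio of 1.58 was 1.42, 1.35, 1.07 and 1.60.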

Other observations

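Several miRNAs below the read minimum stood far apart on few reads. miR-671-5p had 40 zygotene reads and 1 leptotene read but 75 pre-leptotene reads, so here the leptotene library was the one that stood apart. miR-449c-5p, of a family of later germ cells, had 26 zygotene and 0 leptotene reads, and miR-449a-5p had 69 and 9. By chromosome, the 16 miRNAs compared on chromosome 7, which holds miR-202 and the miR-290 cluster, had a median log2 ratio of 1.43. Of these 16, 5 were at least 4-fold higher. The 53 on the X chromosome had a median of 0.40, and 8 of them were at least 4-fold higher. Over all 239 miRNAs the median was 0.71, and 27 (11.3%) were at least 4-fold higher.
Reads credited to the Y RNA gene Rny1 made up 0.0825% of zygotene and 0.107% of leptotene reads.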
